A study of Mus musculus with 20 samples.

Results

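RNA of kidney cortex from wild type (WT) mice on a high-fat diet (HFD) was compared between 5 mice given an inhibitor of MAT2A (MAT2Ai) and 5 mice given placebo. The 10 libraries were taken by their titles, which give the WT genotype and the treatment, out of 20 in the series. The other 10 came from Sweet Pee (SP) mice, which carry a missense mutation of *Slc5a2*, the gene of the glucose carrier SGLT2, with 5 libraries per treatment. All groups were C3H/HeJ males, put on HFD at 10 weeks of age, kept on it for 8 weeks and then injected intraperitoneally 3 times a week for 8 weeks. WT HFD placebo and SP HFD placebo received DMSO, and WT HFD MAT2Ai and SP HFD MAT2Ai received an N-methylaniline that carries a 2-chloro-6-fluorostyryl group, at 10 mg/kg. The diet and the DMSO vehicle were therefore shared by every group, and no normal diet group was among them. C3H/HeJ mice also lack a working *Tlr4*, the receptor of bacterial endotoxin. The labels do not say whether animals of a group shared a litter or a cage, and each library was taken as 1 mouse, so the p values given here measure the spread between these libraries.

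MAT2A joins methionine to ATP and makes S-adenosylmethionine (SAM), the methyl donor for DNA, histones, RNA and small molecules, and a precursor of polyamines. In cells short of SAM the methyltransferase METTL16 is known to favour splicing of the *Mat2a* transcript, so that the mRNA of the enzyme goes up. The proximal tubule, which makes up most of the renal cortex, responds to damage with a small set of well known programmes, among them the p53 targets that halt the cell cycle, the injury genes *Havcr1* and *Lcn2*, the acute phase fibrinogens, and the interferon genes of antigen presentation.

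In the WT libraries 53296824 to 70105956 reads were assigned to genes. Mitochondrial transcripts took 15.2% to 22.2% of them, most in MAT2Ai replicate 5. Reads that fell outside annotated genes were 4.21% to 4.56% in the placebo libraries and 4.51%, 5.41%, 4.49%, 4.88% and 5.49% in MAT2Ai replicates 1 to 5. The first principal component of the WT libraries (31.5% of the variance) set replicate 2 of the MAT2Ai group at 86.9, the other 4 treated libraries between −6.37 and 5.70 and the placebo libraries between −22.9 and −13.5. Replicate 2 thus stood apart from all others, and the main differences that rest on it are given with and without it. The tissue label held: the proximal tubule phosphate carrier *Slc34a1* was at 2887 to 5741 CPM (counts divided by the scaled library size) in the WT libraries, and no marker of skeletal muscle passed the low-count filter. In the SP placebo group, the libraries labelled replicates 1 and 2 had *Slc5a2* at 241 and 282 CPM, where the other 3 had 40.3 to 70.1 CPM, so comparisons with SP kidneys are also given without those 2 libraries.

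*Mat2a* itself, the gene of the inhibited enzyme (chromosome 6, 72432799 to 72439558, mm10), stood at 452, 345, 365, 314 and 316 CPM in the 5 placebo libraries, in order of replicate, and at 392, 525, 504, 494 and 398 CPM in MAT2Ai replicates 1 to 5. Replicates 2, 3 and 4 lay above all placebo libraries, and replicates 1 and 5 lay above all of them but placebo replicate 1. The difference was 0.37 ± 0.14 (SE) on the log2 scale, with an adjusted p of 0.231 in edgeR's quasi-likelihood test and a two-sided exact permutation p of 0.0317 for *Mat2a* alone. *Mat2b*, the regulatory subunit, differed by −0.18 ± 0.07 (adjusted p = 0.266), and *Mettl16* by −0.13 ± 0.06 (adjusted p = 0.324). Over 17 measured genes of the methionine cycle the mean level differed from the placebo mean by −0.08 to 0.06 (log2) in the treated libraries and by −0.08 to 0.16 in the placebo libraries, and the list of methyltransferases of RNA and protein was as close to 0, with 18 of 35 members above it. *Slc5a2* ranged from 371 to 518 CPM without the inhibitor and was at 415, 229, 390, 325 and 385 CPM in MAT2Ai replicates 1 to 5, and the groups overlapped.

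Of 16152 genes tested, 0 (0%) passed an adjusted p of 0.05 in either direction with edgeR's quasi-likelihood test, and the smallest adjusted p was 0.129. At an unadjusted p under 0.05 there were 1675 genes higher (10.4%) and 865 lower (5.36%) in WT HFD MAT2Ai, where 808 in all would be expected by chance. DESeq2 called 150 genes higher (0.929%) and 51 lower (0.316%), the edgeR likelihood ratio test 155 higher (0.96%) and 23 lower (0.142%), and limma-voom with sample weights 2 higher (0.0124%) and 0 lower, which were *Ephx1* and *Sulf2*. In counts simulated from these libraries 17.8% of DESeq2 calls and 11.9% of likelihood ratio calls were false, against 5.41% for the quasi-likelihood test, which recovered 62.7% of the genes changed 2-fold. The simulated counts were drawn gene by gene around the mean of all 20 libraries, apart from the changed genes, and held no library that stood apart. Their rates may not hold for these data. As the tools differed in their counts, the description below separates genes by what the 5 treated libraries did. A gene is said to have no overlap when all 5 treated values lay above, or all 5 below, all 5 placebo values in CPM. For any such gene the two-sided exact permutation p is 0.00794, the smallest that 252 regroupings of 5 against 5 allow, and no gene below passed the adjusted threshold unless another setting is named.

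No overlap was seen for 246 genes higher in the treated kidneys (1.52% of tested genes) and 107 lower (0.662%), and under scaling by library totals for 247 higher and 66 lower. By the two-sided exact permutation test, chance alone would give no overlap for a share of 0.00794 of genes, both directions together. Some of these genes, the lower ones included, would thus be found without any effect of treatment. The differences were small, with a median log2 fold change of 0.43 for the higher and −0.32 for the lower genes against 0.01 over all tested genes. The gap between the lowest treated and the highest placebo library reached 0.25 on the log2 scale for 19 of the higher genes and 0.5 for 3, and for no gene did it reach 1. The rule puts all 5 treated libraries on the same side of placebo, so the medians per library describe size alone. The median of the higher genes lay above the placebo mean by 0.25, 0.70, 0.30, 0.32 and 0.42 (log2) in MAT2Ai replicates 1 to 5, and that of the lower genes below it by 0.19, 0.61, 0.22, 0.19 and 0.25. Replicate 2 was nevertheless the most extreme of the 5 in 153 of the 246 higher genes and 85 of the 107 lower genes. Without replicate 2 the median fold change of the higher genes was 0.33, and without replicates 2, 3 and 5 it was 0.28. The higher genes had longer transcripts (median 3527 bases) and more GC (53%) than all tested genes (3099 bases, 49.8%), and the lower genes shorter ones with less (2892 bases, 46.8%). The part of length and GC in the differences was not tested.

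Most genes with large differences were not among those without overlap. Of 505 genes with a log2 fold change of at least 1, the treated library farthest from the placebo mean was replicate 2 for 268 (53.1%), replicate 3 for 110 (21.8%), replicate 5 for 71 (14.1%), replicate 4 for 41 and replicate 1 for 15. When that library was left out, 130 of the 505 still had a log2 fold change of at least 1. No overlap between the groups was seen for 49 of the 505, against 1.52% of all tested genes. Fold change and overlap come from the same values, so a higher share follows in part from the choice. Among 85 genes with a log2 fold change of −1 or less, 39 kept it without their farthest library and 6 had no overlap, against 0.662% of all tested genes.

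The genes with the widest separation between the groups included targets of p53, the transcription factor that responds to DNA damage. *Cdkn1a*, which encodes the cell cycle inhibitor p21, stood at 5.33, 5.62, 7.84, 4.64 and 5.52 CPM in the placebo libraries and at 19.5, 237, 17.7, 31.1 and 11.7 CPM in MAT2Ai replicates 1 to 5. *Gtse1*, which binds p53 and carries it out of the nucleus, was at 0.0808 to 0.266 CPM in placebo and at 0.610, 4.61, 0.446, 0.977 and 0.678 CPM in treated kidneys. In both genes replicate 2 was far the highest and the other 4 treated libraries still cleared every placebo library. Their log2 fold changes were 3.45 ± 0.65 and 3.21 ± 0.59 (adjusted p = 0.129 for both), and without replicate 2 they were 1.78 and 2.09.

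In other p53 targets replicate 2 did not stand far above the other treated libraries. *Eda2r*, a receptor of the TNF receptor family, was at 0.275 to 0.594 CPM in placebo and at 3.6, 2.28, 1.14, 0.71 and 0.818 CPM in MAT2Ai replicates 1 to 5. *Ccng1*, which encodes cyclin G1, was at 202, 185, 186, 194 and 204 CPM in placebo and at 452, 246, 279, 228 and 270 CPM in treated kidneys. Replicate 1 was the highest library for both. *Phlda3*, which restrains AKT at the membrane, was at 2.26 to 3.39 CPM in placebo and at 9.36, 9.91, 7.07, 4.74 and 4.16 CPM in treated kidneys. *Tnfrsf10b*, the TRAIL death receptor, was at 1.03 to 1.49 CPM in placebo and at 2.88, 2.95, 2.42, 1.62 and 1.79 CPM in treated kidneys. In these 2 genes replicates 1, 2 and 3 lay well above replicates 4 and 5, which came closest to placebo. The log2 fold changes were 2.08 ± 0.43 for *Eda2r*, 1.35 ± 0.28 for *Phlda3*, 0.86 ± 0.21 for *Tnfrsf10b* and 0.60 ± 0.16 for *Ccng1*, and without replicate 2 they were 1.96, 1.19, 0.75 and 0.66.

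Over the 3 lists of p53 targets together, 7 of 38 genes (18.4%) had no overlap and stood higher in the treated kidneys, the 6 above and *Trp53inp1*, and 0 stood lower, against 1.52% and 0.662% of all tested genes. The median log2 fold change was 0.32, and 33 of 38 were above 0, against 52.6% of all tested genes. The lists had been written with earlier results of these data known, so these counts describe them only. Members of the feedback and repair list differed less, with a median log2 fold change of 0.10: *Mdm2*, the ubiquitin ligase of p53, was at 30.4 to 34.8 CPM in placebo and at 48.7, 48.0, 41.2, 33.9 and 37.2 CPM in treated kidneys, where replicate 4 lay within the placebo range. *Psrc1*, a microtubule protein of the arrest list, was at 0.125 to 0.303 CPM in placebo and at 1.46, 0.994, 0.504, 0.284 and 0.539 CPM in treated kidneys, where replicate 4 again overlapped. In replicate 5 the 3 lists stood 0.47, 0.33 and 0.16 above the placebo mean (log2), although the tubular injury list stood 0.13 below it.

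Promoter sequences bear on these genes because p53 binds its targets at pairs of a 10-base unit. The 250 bases before the start of *Cdkn1a* and *Ccng1* are shown to place the units in a gene led by replicate 2 and in one led by replicate 1. They come from RefSeq, build GRCm38.p6, the patch release of the mm10 assembly that the counts used, and are written 5′ to 3′ on the strand of the gene, with the bases that match the p53 unit, and any bases between the units of a pair, in capitals. *Cdkn1a* lies on the plus strand, chr17:29090729-29090978, with a pair of units from −73 to −42, and *Ccng1* on the minus strand, chr11:40755287-40755536, with a lone unit from −185 to −176.
Cdkn1a: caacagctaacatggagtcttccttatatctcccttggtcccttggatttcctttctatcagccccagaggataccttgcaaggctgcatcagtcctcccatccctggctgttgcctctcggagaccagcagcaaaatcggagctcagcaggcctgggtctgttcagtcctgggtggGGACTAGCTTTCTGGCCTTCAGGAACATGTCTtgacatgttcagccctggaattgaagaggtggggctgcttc
Ccng1: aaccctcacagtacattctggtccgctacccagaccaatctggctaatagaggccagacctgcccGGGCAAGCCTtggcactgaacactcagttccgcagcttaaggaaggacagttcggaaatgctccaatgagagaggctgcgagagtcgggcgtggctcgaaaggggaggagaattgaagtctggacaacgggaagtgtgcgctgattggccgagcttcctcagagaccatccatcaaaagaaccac

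Both strands of each promoter (250 bases before to 50 after the start) were searched for the p53 unit by its consensus and for pairs of units 0 to 13 bases apart. The lone unit was in 14 of 41 promoters of the p53 lists (34.1%; 30 of 38 symbols matched) and in 8.36% of all 32851 promoters. Among the 246 genes higher with no overlap, 183 matched, and 13 of their 246 promoters (5.28%) held the unit. The share was 6.9% among the promoters of all tested genes. A pair of units was in 0.0731% of all promoters, and among the p53 lists in 1 promoter, that of *Cdkn1a*. A match says nothing of binding in these kidneys.

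Outside the p53 lists, the higher genes with the smallest p values were of several kinds. *Ephx1*, the microsomal epoxide hydrolase, was at 24.0, 26.4, 22.4, 25.8 and 21.4 CPM in placebo and at 47.7, 33.2, 53.2, 29.2 and 32.1 CPM in MAT2Ai replicates 1 to 5. *Sulf2*, which trims sulfate from heparan sulfate outside the cell, was at 16.4 to 19.9 CPM in placebo and at 31.6, 45.7, 27.5, 22.7 and 24.0 CPM in treated kidneys. Both differed by less than 2-fold with little spread, at log2 fold changes of 0.70 ± 0.13 and 0.74 ± 0.14, and without replicate 2 the fold changes were 0.75 and 0.54. *Ly6a* (Sca-1), a surface protein anchored by lipid, was at 367 to 468 CPM in placebo and at 788, 770, 523, 582 and 1162 CPM in treated kidneys. Its relative *Ly6e* was at 65.5 to 95.5 CPM in placebo and at 288, 177, 130, 127 and 226 CPM in treated kidneys. The pair shared an order in which replicates 1 and 5 were high and replicates 3 and 4 nearest to placebo, and *Ly6e* differed by 1.22 ± 0.25 (log2) with replicate 2 and 1.24 without it. *Ly6a* differed by 0.82 ± 0.16, and by 0.71 with replicates 3 and 5 both left out.

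Of the 10 macrophage markers 7 had a log2 fold change above 0 and 3 below, with a median of 0.15. Their mean lay 0.90 (log2) above placebo in replicate 2. It lay between −0.22 and 0.35 in the remaining treated libraries and between −0.20 and 0.33 in placebo. *C1qb*, a complement gene of resident macrophages, was at 6.17 to 9.04 CPM in placebo and at 7.33 to 10.1 CPM in treated kidneys. In RNA of whole cortex a difference in the number of cells of a type and a difference in RNA per cell cannot be told apart.

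Replicate 2 was the highest library for several, but not all, of the remaining large differences without overlap. *Plin4*, a coat protein of lipid droplets, was at 0.366 to 1.25 CPM in placebo and at 1.36, 15.6, 2.62, 3.37 and 1.88 CPM in treated kidneys. *Gdf15*, a circulating stress signal, was at 4.30 to 7.41 CPM in placebo and at 11.6, 85.0, 8.79, 8.35 and 9.52 CPM in treated kidneys. Without replicate 2 the log2 fold change of *Plin4* went from 2.76 to 1.66 and that of *Gdf15* from 2.20 to 0.83. *Akr1b7*, an aldo-keto reductase, and *Chrnb1*, a subunit of the muscle acetylcholine receptor, had the same shape, at 20.6 and 15.4 CPM in replicate 2 against 3.71 to 6.80 and 2.98 to 3.90 CPM in the other treated libraries. Their log2 fold changes of 1.46 and 1.39 became 0.80 and 0.62 without it. *Ppl*, the junction protein periplakin, was led by replicates 2 and 3 (11 and 13.4 CPM, against 2.73 to 4.44 in the other treated and 1.67 to 2.56 in the placebo libraries). *Hr*, a corepressor of nuclear receptors, was spread evenly, at 1.17 to 2.17 CPM against 0.316 to 1.15. *Slc22a21*, a carnitine carrier, and *Limk2*, a kinase of the actin cytoskeleton, differed by 0.64 ± 0.14 and 0.35 ± 0.07 on the log2 scale.

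**Figure D1:**
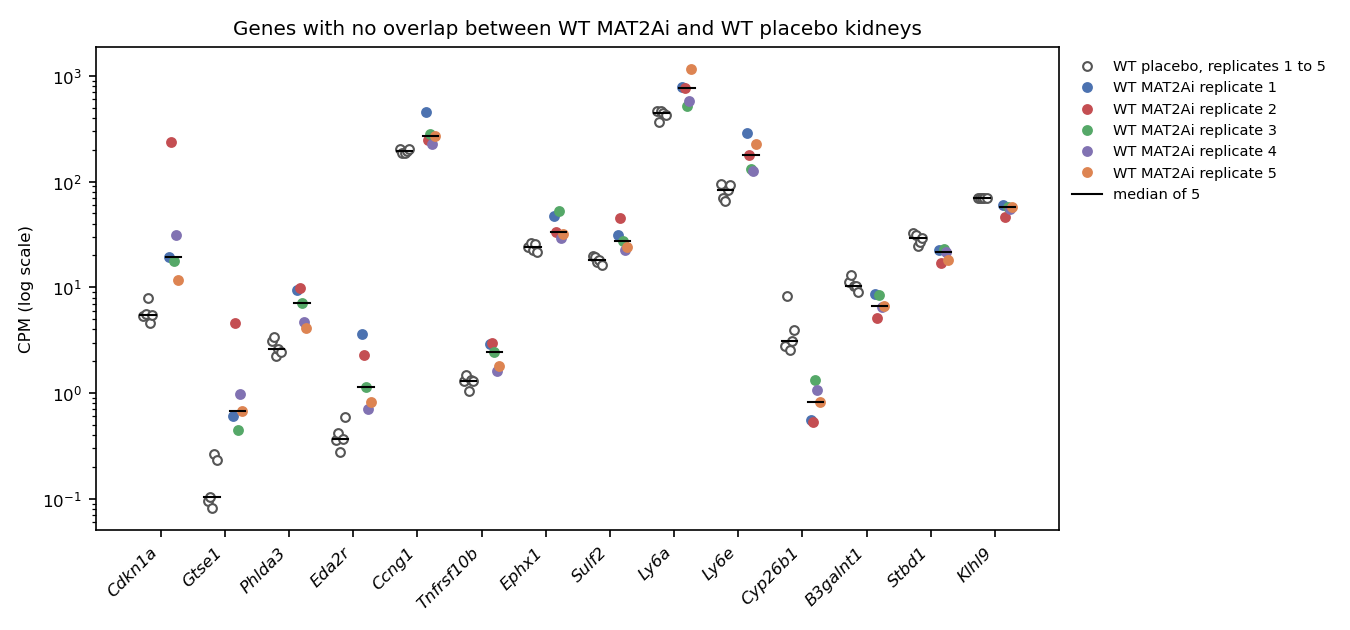
CPM on a log axis of 14 genes with no overlap, with the 5 WT placebo libraries as open circles, the 5 WT MAT2Ai libraries as filled circles coloured by replicate, and the median of each group as a bar. For every gene all filled circles lie on the same side of the open ones, and for *Cdkn1a* replicate 2 sits at 237 CPM where the other treated libraries sit between 11.7 and 31.1 CPM.

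Splicing factors and their kinases differed by little in size. Of 41 measured, 13 (31.7%) stood higher with no overlap and 0 lower, against 1.52% and 0.662% of all tested genes. A log2 fold change above 0 was found for 38 of the 41 (52.6% of all tested genes), and the median was 0.27, or 0.20 without replicate 2. The list had been written with earlier results known. *Rsrc2*, a serine and arginine rich protein of the spliceosome, was at 27.4 to 32.2 CPM in placebo and at 33.7, 40.2, 36.1, 41.6 and 38.2 CPM in MAT2Ai replicates 1 to 5. *Hnrnph1*, which binds G-rich RNA, was at 63.8 to 82.4 CPM in placebo and at 94.2, 99.1, 89.8, 87.3 and 102 CPM in treated kidneys. Both were even across the treated libraries. Others were *Clk1*, *Srsf5*, *Srsf6*, *Rbm5*, *Ddx5*, *Son*, *Srrm2*, *Pnisr*, *Prpf38b* and *Snrnp70*.

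The share of reads outside annotated genes moved with the splicing list. The list lay above the placebo mean by 0.18, 0.40, 0.14, 0.21 and 0.37 (log2) in MAT2Ai replicates 1 to 5, and the share of such reads was 4.51%, 5.41%, 4.49%, 4.88% and 5.49% in the same libraries. Its part in the difference was not tested. The nuclear RNA *Malat1* went the same way, at 476 to 821 CPM in placebo and at 873, 1679, 767, 1109 and 1422 CPM in treated kidneys, but replicate 3 lay within the placebo range. In SP kidneys the median log2 fold change of the splicing list was 0.05.

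Genes lower in all 5 treated kidneys differed by less. *Stbd1*, which ties glycogen to membranes, was at 33.0, 31.6, 24.6, 27.1 and 29.3 CPM in placebo and at 22.5, 17.0, 23, 21.7 and 18.1 CPM in treated kidneys. *B3galnt1*, a glycosyltransferase of globoside synthesis, was at 9.11 to 13.1 CPM in placebo and at 8.70, 5.14, 8.44, 6.52 and 6.61 CPM in treated kidneys. *Klhl9*, a substrate adaptor of a ubiquitin ligase, was at 69.6 to 70.0 CPM in placebo and at 60.5, 46.3, 57.2, 55.6 and 57.1 CPM in treated kidneys. The placebo libraries were thus almost equal for *Klhl9*, and its log2 fold change of −0.34 ± 0.08 was −0.28 without replicate 2. *Stbd1* and *B3galnt1* differed by −0.51 ± 0.11 and −0.61 ± 0.14, and by −0.45 and −0.52 without replicate 2.

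*Cyp26b1*, the hydroxylase that clears retinoic acid, had the largest difference among the lower genes that were named, at 2.77, 8.23, 2.54, 3.08 and 3.92 CPM in placebo and at 0.553, 0.528, 1.32, 1.06 and 0.818 CPM in MAT2Ai replicates 1 to 5. Here no treated library led, placebo replicate 2 was the highest, and the log2 fold change was −2.26 ± 0.54 (adjusted p = 0.137) with replicate 2 of the treated group and −2.13 without it. *Fcamr*, a receptor for IgM and IgA, was at 56.3 to 84.9 CPM in placebo and at 43.5, 18.9, 45, 48.8 and 23.6 CPM in treated kidneys. *Fzd1*, a Wnt receptor, was at 59.0 to 85.2 CPM in placebo and at 55.1, 26.4, 51.2, 38.5 and 53.8 CPM in treated kidneys. Replicate 2 was the lowest for both. *Dock4*, an activator of Rac, and *Ptprg*, a receptor phosphatase, differed by −0.54 ± 0.13 and −0.26 ± 0.06, and *Dnajc6* (auxilin, which uncoats clathrin vesicles), *Tmem178b*, *Asxl3* and *Hmcn2* by −0.57 to −0.82.

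The genes without overlap were then followed in SP kidneys, which share no library with this comparison. Of the 246 higher genes, 201 (81.7%) also had a log2 fold change above 0 between SP HFD MAT2Ai and SP HFD placebo, against 50.6% of all tested genes. Of the 107 lower genes, 85 (79.4%) were below 0, against 49.4%. The differences there were small, with medians of 0.08 and −0.09. No overlap in SP kidneys as well was seen for 18 of the 246 (7.32%, against 1.06% of all tested genes) and 4 of the 107 (3.74%, against 0.52%), and for 0 genes in the opposite direction. Without the SP placebo libraries labelled replicates 1 and 2, a choice made after seeing the data, the same sign was found for 191 of 246 (77.6%; all genes 49.9%) and 81 of 107 (75.7%; 50.1%), and no overlap for 24 (9.76%; 2.47%) and 6 (5.61%; 2.04%).

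The 18 higher in both genotypes included *Cdkn1a*, *Eda2r*, *Phlda3*, *Tnfrsf10b* and *Ccng1* of the p53 lists, *Gdf15*, *Ephx1*, *Sulf2*, *Ly6a*, *Ly6e*, *Slc22a21*, *Aaas*, *Usp43*, *Tmem43*, *Exoc4*, *Ppil2* and *Nub1*, and the 4 lower in both were *Stbd1*, *B3galnt1*, *Tmem178b* and *Abca3*. The log2 fold change in SP kidneys was 2.38 for *Eda2r*, 1.79 for *Cdkn1a*, 1.59 for *Phlda3* and for *Ly6e*, 0.95 for *Tnfrsf10b* and 0.85 for *Ccng1*, above the WT value for all but *Cdkn1a*. By contrast *Plin4* was at 0.32 in SP against 2.76 in WT kidneys, *Cyp26b1* at −0.39 against −2.26 and *Chrnb1* at 0.04 against 1.39, where the WT values without replicate 2 were 1.66, −2.13 and 0.62. The interaction of treatment and genotype passed the adjusted threshold for 0 genes in edgeR (903 at an unadjusted p under 0.05, smallest adjusted p 0.841), so none of these differences between genotypes passed the test.

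**Figure D2:**
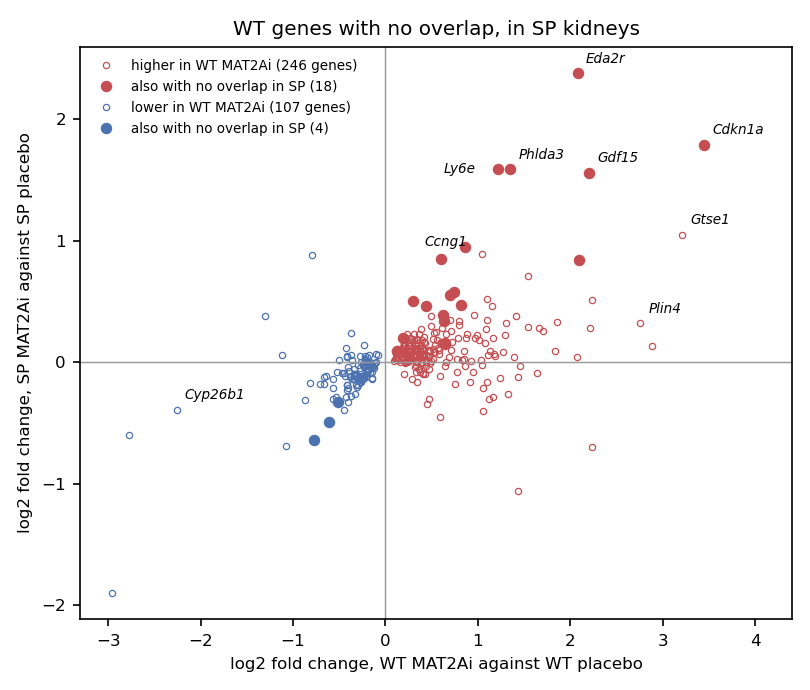
The log2 fold change in SP kidneys (vertical axis) against that in WT kidneys (horizontal axis) for the 246 higher (red) and 107 lower (blue) genes without overlap in WT kidneys, with filled points for the 18 and 4 that had no overlap in SP kidneys either. Most points lie in the quadrant of equal sign (201 and 85), and vertical distances from 0 are smaller than horizontal ones for most of them.

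What belonged to 1 kidney was counted next. A gene was said to stand apart in a library when its level was at least 1 (log2, 2-fold) above, or below, all 9 other WT libraries. MAT2Ai replicate 2 had 388 such genes above (2.4% of tested genes) and 355 below (2.2%), replicate 3 had 110 above (0.681%) and 28 below (0.173%), and replicate 5 had 78 above (0.483%) and 44 below (0.272%). Replicate 4 had 18 above (0.111%) and 41 below (0.254%), and replicate 1 had 3 above (0.0186%) and 18 below (0.111%). In the placebo libraries the counts were 1 to 14 above and 15 to 74 below. Replicates 2, 3 and 5 therefore had several times as many genes above as any placebo library, replicate 4 had slightly more, and for genes below replicate 2 exceeded every placebo library and the others did not. The total distance told the same: the number of genes at least 2-fold from the mean of 4 placebo libraries was 579, 2484, 911, 960 and 954 for MAT2Ai replicates 1 to 5 (averages over the sets of 4) and 482 to 756 for the placebo libraries. Replicate 1 thus lay within the placebo range, and replicates 3, 4 and 5 were above it.

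**Figure D3:**
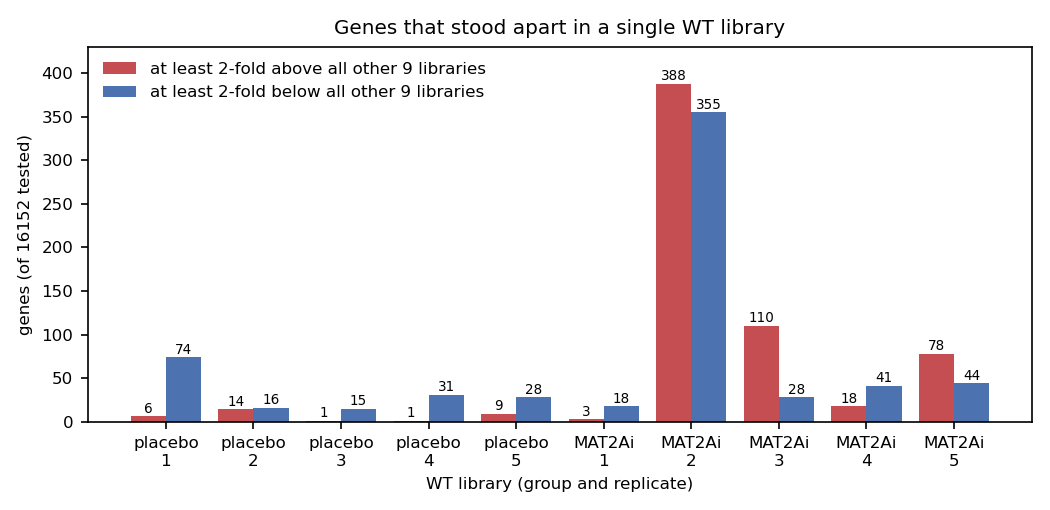
Bars from 0 give, for each WT library, the number of genes at least 2-fold above (red) or below (blue) all other 9 WT libraries, of 16152 tested. MAT2Ai replicate 2 had 388 and 355, replicate 3 had 110 above, replicate 5 had 78 above, and no placebo library had more than 14 above.

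Of the 388 genes that stood apart above the others in MAT2Ai replicate 2, 23 (5.93%) were in the tubular injury or acute phase lists. These lists hold 27 and 9 of the 16152 tested genes. *Fgg*, a chain of fibrinogen, was at 1.14 to 1.75 CPM in placebo and at 1.29, 568, 16.2, 2.63 and 0.957 CPM in MAT2Ai replicates 1 to 5. *Lcn2*, the iron-binding injury protein NGAL, was at 1.03 to 2.45 CPM in placebo and at 2.79, 676, 19.4, 5.01 and 1.06 CPM in treated kidneys. In both genes replicate 3 came next, at a small part of the level of replicate 2, and replicate 5 was below or within the placebo range. *Krt20* (a keratin of damaged tubules) was at 58.6 CPM in replicate 2 and 3.18 in replicate 3 against at most 0.639 CPM in the other WT libraries, and *Sox9*, a transcription factor of tubular repair, at 40.7 and 1.54 CPM against at most 0.693. *Fga*, another fibrinogen chain, was at 1619 and 64.4 CPM against 8.69 to 29.8. *Lrg1*, a secreted leucine-rich glycoprotein of the acute phase, and *Serpina10*, an inhibitor of coagulation factors, were at 254 and 69.3 CPM in replicate 2 against at most 9.50 and 3.22 CPM elsewhere. Without replicate 2 the log2 fold change went from 4.87 to 1.30 for *Fga*, from 3.87 to 0.66 for *Lrg1* and from 4.32 to 0.85 for *Serpina10*, and the median of the 9 acute phase genes from 3.16 to 0.66.

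The kidney injury receptor *Havcr1* (KIM-1) was at 34.1, 29.1, 27.3, 50.9 and 27.2 CPM in placebo and at 52.5, 1214, 74.4, 43.8 and 20.6 CPM in MAT2Ai replicates 1 to 5. Replicates 1, 2 and 3 lay above all placebo libraries, replicate 4 within them and replicate 5 below them. Without replicate 2 the log2 fold change went from 3.06 to 0.50 for *Havcr1*, from 6.39 to 1.91 for *Fgg*, from 6.40 to 2.08 for *Lcn2*, from 5.54 to 2.11 for *Krt20* and from 4.52 to 1.08 for *Sox9*. Over the 27 genes of the tubular injury list the mean level lay 2.86 (log2) above placebo in replicate 2, 1.0 in replicate 3, 0.41 in replicate 4 and 0.35 in replicate 1, and 0.13 below it in replicate 5, and the median log2 fold change of 0.98 became 0.29 without replicate 2.

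Other gene groups stood above the placebo range in replicate 2 as well. The metallothioneins *Mt1* and *Mt2*, which bind zinc, were at 877 and 705 CPM there, against 52.0 to 162 and 22.6 to 98.8 CPM in the 9 other libraries. *Pdk4*, which holds back pyruvate oxidation, was at 244 CPM against 5.6 to 14.3, and *Angptl4*, an inhibitor of lipoprotein lipase, at 305 CPM in replicate 2 and 72.2 in replicate 4 against 8.00 to 33.3. The glucocorticoid target list lay 2.43 above placebo in replicate 2 and 1.43 in replicate 4, and the integrated stress and serine synthesis list 1.74 in replicate 2 and 0.14 to 0.46 in the other 4, all above the placebo libraries. *Asns*, which makes asparagine, was at 17.9 CPM in replicate 2 and at 2.39 to 4.61 CPM in the other libraries. Without replicate 2 the log2 fold change went from 1.92 to 0.63 for *Mt1*, from 2.54 to 0.88 for *Mt2*, from 2.87 to 0.33 for *Pdk4*, from 2.35 to 0.76 for *Angptl4* and from 1.20 to 0.43 for *Asns*. The median went from 0.81 to 0.53 for the glucocorticoid list and from 0.85 to 0.22 for the integrated stress list.

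Markers of several nephron segments were low in the same kidney. Those of collecting duct principal cells were not, at a sum of 505 CPM against 430 to 611 CPM in placebo. The 12 markers of the proximal tubule S1 and S2 segments summed to 8403 CPM in replicate 2, to 10590 in replicate 4, and to 12080 to 13940 CPM in the other 8 WT libraries. *Slc34a1* was at 2887 CPM there, and the thick ascending limb genes *Egf* and *Slc12a1* at 350 and 123 CPM against 913 to 1084 and 303 to 527 CPM in the others. *Kdr*, the VEGF receptor of endothelium, was at 8.23 CPM against 20.6 to 49.2. The 10 macrophage markers summed to 585 CPM against 72 to 118, but 496 CPM of that were *Cd14*, which injured tubules also express, and *C1qb* at 8.51 CPM lay among the others. *Cd68* was at 6.45 CPM against 1.59 to 2.68. The part of cell makeup in the genes of replicate 2 was not tested.

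Of the 110 genes that stood apart above the others in replicate 3, 6 (5.45%) were markers of the urothelium, the lining of the renal pelvis and bladder. This was all 6 of that list, out of 16152 tested genes. The uroplakins *Upk3a*, *Upk1b* and *Upk3b* were at 8.66, 5.34 and 4.30 CPM there against at most 0.763, 0.355 and 0.391 CPM in the 9 other WT libraries. *Psca*, a surface protein of urothelium, was at 17.4 CPM, and at 1.44 in replicate 4, against at most 0.559 CPM elsewhere. In each of these genes replicate 4 was the next highest, and the 6 markers of urothelium and papilla summed to 45.9 CPM in replicate 3, 4.37 in replicate 4, 1.76 in replicate 5, 1.21 in replicate 2 and 0.0851 in replicate 1, against 0.516 to 1.34 CPM in placebo. All 6 were detected in replicate 3, and *Upk3a* and *Upk1b* had no reads in replicate 1.

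*Adgrf3*, an adhesion receptor, at 40.1 CPM and *Fcgbp*, a mucin-like protein that binds IgG, at 29.2 CPM were the highest of the named genes of replicate 3, and replicate 4 again came next at 2.52 and 1.97 CPM. *Vcan*, the matrix proteoglycan versican, was at 14.8 CPM in replicate 3, at 0.184 to 0.854 CPM in the other treated libraries and at 0.0970 to 0.341 CPM in placebo. *Sptssb*, a subunit of serine palmitoyltransferase, was at 7.50 CPM against at most 0.675. The basal keratins *Krt5* and *Krt15* were at 4.46 and 2.30 CPM against at most 0.568 and 0.295. The smooth muscle gene *Acta2* was high in the same library, at 39.5 CPM against 12.9 to 28.3. The fat gene *Fabp4* was only a little above the next library, at 43.7 CPM against 14.6 to 39.7. The 3 measured fat markers summed to 58.8 CPM there, against 14.7 to 46.3 CPM in placebo and 15.8 to 41.4 CPM in the remaining treated libraries. Replicate 4 was nearest to replicate 3 for 43.6% of the 110 genes. Without replicate 3 the median log2 fold change of the urothelium list went from 3.62 to 0.92, and in SP kidneys it was −1.39. The part of urothelial, smooth muscle or fat cells in the genes of this kidney was not tested.

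Of the 78 genes that stood apart above the others in replicate 5, 41 (52.6%) were in the lists of interferon-stimulated, MHC class I or MHC class II genes, and of the 44 below the others 0 were. These lists hold 38, 19 and 11 of the 16152 tested genes. *Iigp1*, a GTPase that guards against intracellular pathogens, was at 2.33 to 5.62 CPM in placebo and at 3.83, 4.08, 3.05, 1.94 and 205 CPM in MAT2Ai replicates 1 to 5. *H2-Ab1*, the beta chain of an MHC class II molecule, was at 27.5 to 38.5 CPM in placebo and at 32.1, 43.9, 29.1, 29.8 and 582 CPM in treated kidneys. *Psmb8*, a subunit of the immunoproteasome, was at 5.30 to 8.57 CPM in placebo and at 6.01, 10.8, 6.76, 7.35 and 129 CPM in treated kidneys. For all 3 the treated libraries other than replicates 2 and 5 lay within or at the edge of the placebo range. For *H2-Ab1* and *Psmb8* replicate 2 was the nearest to replicate 5, as it was for 53.8% of the 78 genes. *Ubd*, a ubiquitin-like protein, was at 48.5 CPM against at most 3.23, *H2-DMb2*, which loads peptides on class II molecules, at 64.2 against at most 3.53, and *Tgtp1*, an interferon-induced GTPase whose near-identical copy *Tgtp2* makes its counts uncertain, at 37.5 against at most 1.21 CPM. *H2-Ea-ps*, annotated as a pseudogene in the reference strain, was at 259 CPM against at most 22.1, and *BC023105* at 21.1 against at most 0.248 CPM.

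As lists, MHC class II lay 2.81 (log2), MHC class I and immunoproteasome 2.40 and interferon-stimulated genes 2.07 above placebo in replicate 5. In replicate 2 the same lists lay 0.51, 0.67 and 0.55 above it, and in replicates 1, 3 and 4 between −0.34 and 0.06. *Cd74*, the invariant chain of class II molecules, was at 1720 CPM in replicate 5 against 107 to 177, *H2-K1*, a class I heavy chain, at 766 against 97.5 to 210, and *Nlrc5*, the activator of class I genes, at 9.50 against at most 3.31 CPM. Without replicate 5 the median log2 fold change went from 1.85 to 0.07 for class II, from 0.90 to 0.16 for class I and from 0.62 to 0.16 for interferon-stimulated genes. Markers of immune cells did not move in step: in replicate 5 those of macrophages summed to 72 CPM, below the 82.3 to 99.2 CPM of placebo, those of B and plasma cells to 155 CPM against 234 to 556, and those of T cells to 6.70 CPM against 4.56 to 8.57, with *Cd3e* at 1.03 CPM against 0.194 to 0.550 in placebo. Replicate 5 also had the highest mitochondrial share (22.2%) and the highest share of reads outside genes (5.49%), whose part in these differences was not tested.

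Promoters are shown for *Tgtp1* and *Igtp*, interferon-induced GTPases that stood apart in replicate 5, because the interferon-stimulated response element was frequent among the genes of that kidney. They are again the 250 bases before the start from RefSeq (GRCm38.p6), 5′ to 3′ on the strand of the gene, with the element in capitals. *Tgtp1* lies on the minus strand, chr11:48992247-48992496, with the element from −77 to −68, and *Igtp* on the plus strand, chr11:58199306-58199555, with it from −34 to −25.
Tgtp1: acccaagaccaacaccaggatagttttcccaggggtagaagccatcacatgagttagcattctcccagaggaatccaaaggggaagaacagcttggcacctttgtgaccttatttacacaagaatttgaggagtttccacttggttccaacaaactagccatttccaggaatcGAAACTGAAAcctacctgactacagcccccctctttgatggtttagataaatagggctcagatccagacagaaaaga
Igtp: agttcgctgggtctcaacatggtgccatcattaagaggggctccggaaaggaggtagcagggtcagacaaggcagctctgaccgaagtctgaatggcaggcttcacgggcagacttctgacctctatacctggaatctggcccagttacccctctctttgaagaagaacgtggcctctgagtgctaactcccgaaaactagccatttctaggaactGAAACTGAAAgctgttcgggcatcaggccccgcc

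The element, searched on both strands as GAAA, 2 bases of any kind and GAAA, was in 17 of 52 promoters of the genes of replicate 5 (32.7%; 49 of 78 symbols matched) and in 3.44% of all 32851 promoters. The gamma-activated sequence, searched as TTCNNNGAA, was in 11 of the 52 (21.2%) and in 8.30% of all promoters. Among the genes that stood apart in replicates 2 and 3 the response element was in 2.94% and 2.91% of promoters, and among the genes higher with no overlap in 2.85%. The p53 unit was in 3.85% of promoters of the genes of replicate 5.

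**Figure D4:**
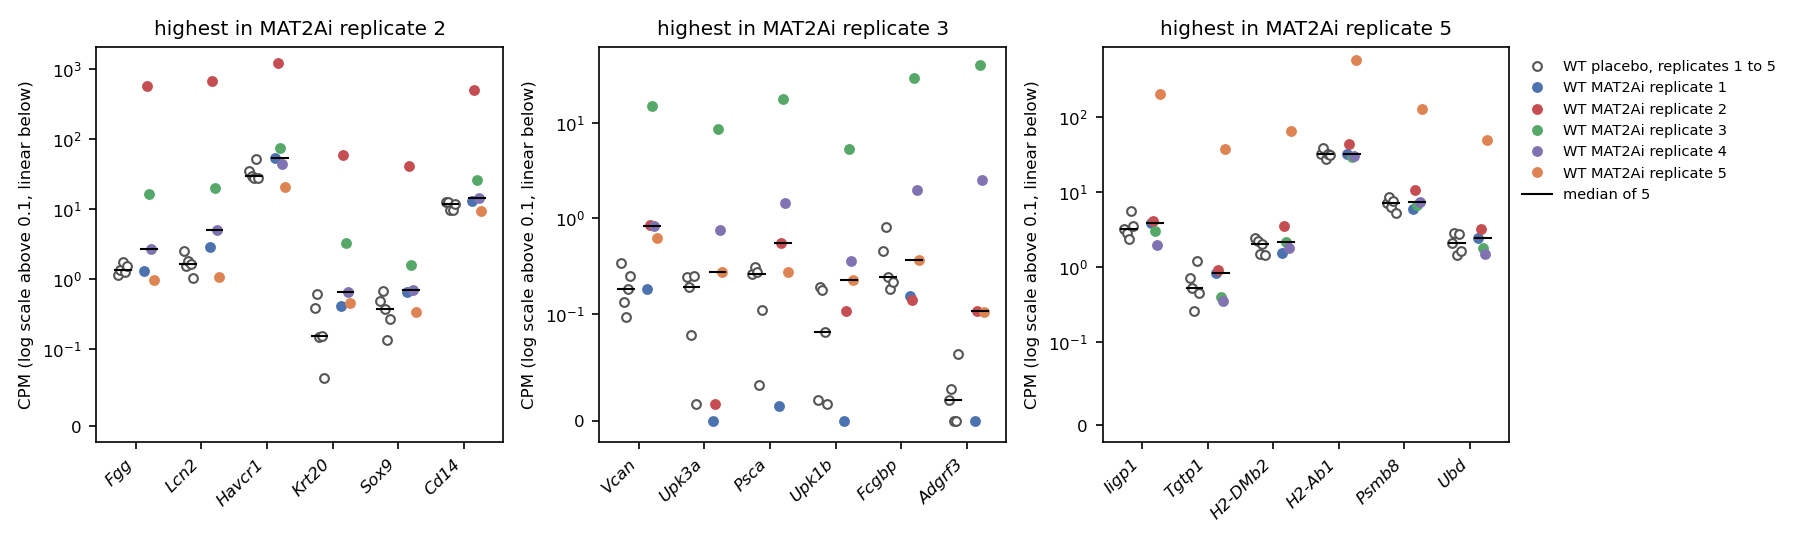
CPM (log axis above 0.1, linear below) of 6 genes each that were highest in MAT2Ai replicates 2, 3 and 5, with WT placebo libraries as open circles, WT MAT2Ai libraries as filled circles coloured by replicate and the median of each group as a bar. In each panel 1 treated library lies above all others, *Lcn2* at 676 CPM, *Psca* at 17.4 CPM and *H2-Ab1* at 582 CPM. The treated medians lie far below that library, although for some genes, such as *Lcn2*, the treated median exceeds every placebo library.

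Replicates 1 and 4 had few genes of their own. *Hmox1*, the heme oxygenase induced by oxidants and heme, was at 20.6, 23.1, 60.5, 23.6 and 21.6 CPM in placebo and at 456, 96.9, 19.8, 15.9 and 24.5 CPM in MAT2Ai replicates 1 to 5. Its log2 fold change of 2.04 ± 0.67 became 0.37 without replicate 1, and the 20 measured targets of NRF2, the regulator of the oxidant response, lay 0.51, 0.52, 0.18, −0.15 and 0.02 (log2) from the placebo mean in replicates 1 to 5. *Ces1g*, a carboxylesterase, and *Dscaml1*, a neuronal adhesion protein, were the other 2 named genes above all others in replicate 1, at 11.3 and 0.567 CPM against at most 4.42 and 0.174. Below all others it had the low genes *Cd3e*, *Msr1* and *Shc4*, at 0.0142 to 0.0993 CPM.

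In replicate 4 the enzymes that make and clear active vitamin D stood at opposite ends, with *Cyp27b1* at 40.0 CPM against 4.04 to 12.3 and *Cyp24a1* at 4.08 CPM against 26.5 to 97.3 in the 9 other WT libraries. *Cyp2b10*, a cytochrome P450 of drug metabolism, was at 26.9 CPM there against 2.43 to 8.29, and *Ch25h*, cholesterol 25-hydroxylase, at 1.26 against 0.157 to 0.399. *Ddit4*, an inhibitor of mTOR signalling, was at 239 CPM in replicate 4 and 130 in replicate 2 against 10.9 to 46.5. *Ren1*, the gene of renin, was high in replicates 1 and 2: it was at 171 to 305 CPM in placebo and at 1074, 846, 242, 484 and 325 CPM in treated kidneys. Replicate 3 lay within the placebo range, and the log2 fold change of 1.21 ± 0.30 was 0.87 without replicate 1 and 1.05 without replicate 2.

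Inflammatory genes that the study names overlapped between the groups. *Icam1*, an adhesion molecule of leukocytes, was at 15.9 to 25.5 CPM in placebo and at 24.7, 85.9, 24.0, 22 and 25.9 CPM in MAT2Ai replicates 1 to 5. *Rela*, the p65 subunit of NF-κB, was at 28.3 to 29.8 CPM in placebo and at 29.3, 56.9, 28.7, 32.5 and 27.4 CPM in treated kidneys. Replicate 2 was the high library for both, and without it the log2 fold changes were 0.28 and 0.03. The AP-1 genes *Fos*, *Jun* and *Junb* differed by −0.33 ± 0.68, 0.42 ± 0.32 and 0.43 ± 0.40, the chemokine *Ccl2* by 0.39 ± 0.40, *Il1b* by −0.12 ± 0.40 and *Nfkb1* by 0.12 ± 0.10, with adjusted p from 0.537 to 0.915. *Tnf* and *Il6* did not pass the low-count filter and reached at most 11 and 10 reads in a WT library, so a difference was not detectable at this depth. Over 22 chemokines and NF-κB targets the median log2 fold change was 0.42, or 0.20 without replicate 2. *Cxcl1*, the neutrophil chemokine, was at 2.01 to 5.34 CPM in placebo and at 5.64, 48.3, 5.44, 17.9 and 4.84 CPM in treated kidneys, where replicate 5 overlapped.

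Among all 57 lists with measured genes, 5 had the mean of every treated library above that of every placebo library and 0 had all below. These were the 3 p53 lists, the splicing list and the integrated stress and serine synthesis list. The margin was narrow for some of them. The lowest treated and highest placebo means (log2) were 0.09 and 0.05 for p53 feedback and repair. They were 0.14 and 0.11 for integrated stress, and 0.14 and 0.09 for splicing. No overlap was seen for 0 of 13 members of the feedback list and 1 of 18 of the integrated stress list. The largest difference in 1 library of the remaining lists was that of the urothelium in replicate 3 (5.56), followed by the acute phase in replicate 2 (4.88). Of 30 nuclear genes of oxidative phosphorylation 29 were below 0, but the median was −0.12, and it was 0.01 without replicates 2, 3 and 5. *Nr1d1*, the repressor REV-ERBα, was at 29.96 to 56.2 CPM in placebo and at 33.9, 16.8, 28.6, 33.2 and 30.8 CPM in treated kidneys, with a log2 fold change of −0.72 ± 0.22. Erythroid, hepatocyte and adrenal markers overlapped between the groups, with summed levels of 320 to 709 against 240 to 633 CPM, 337 to 756 against 187 to 463 CPM, and 0.114 to 0.416 against 0.245 to 0.808 CPM.

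**Figure D5:**
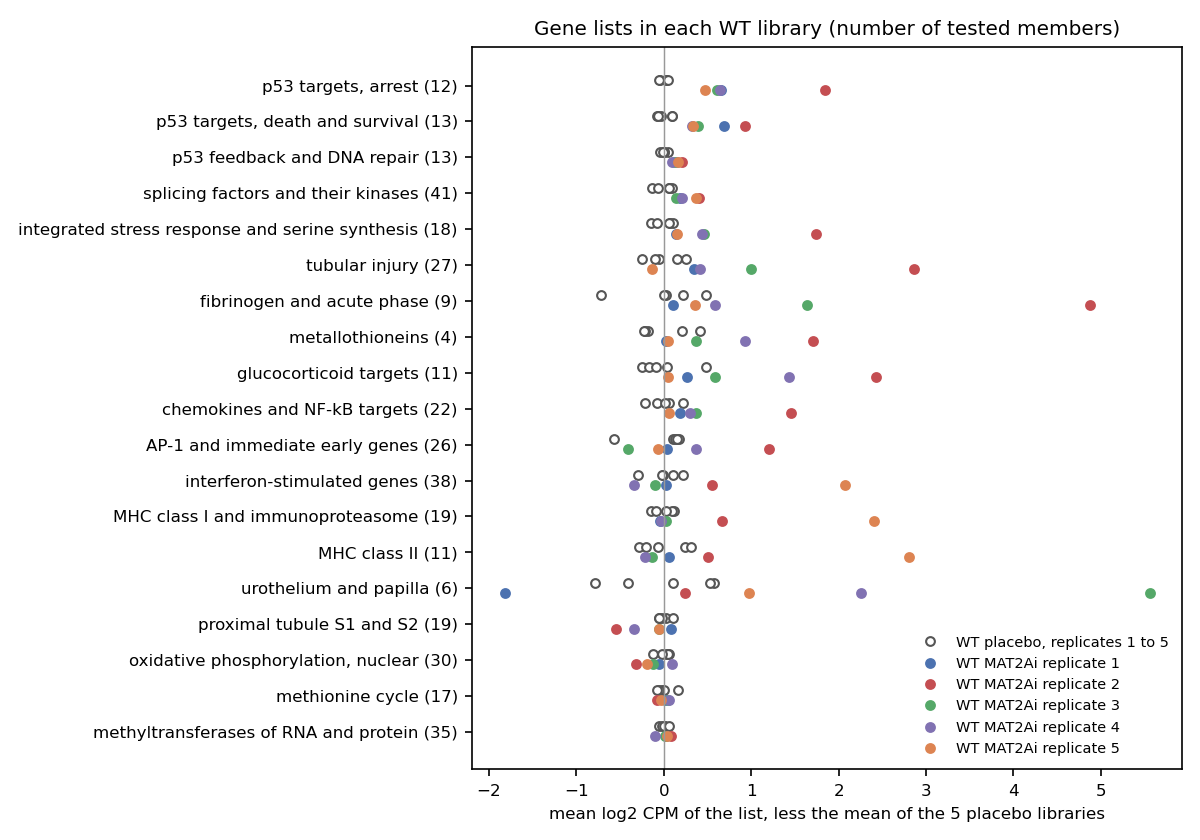
The mean log2 CPM of 19 gene lists in each WT library, less the mean of the 5 placebo libraries, with placebo as open circles and MAT2Ai libraries as filled circles coloured by replicate, and the number of tested members in brackets. The p53, splicing and integrated stress lists have all 5 filled circles to the right of the open ones. The margin is narrow for the p53 feedback, splicing and integrated stress lists. Injury and acute phase lists are led by replicate 2, urothelium by replicate 3 and MHC lists by replicate 5.

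Leaving out libraries changed how many genes passed the adjusted threshold in edgeR's quasi-likelihood test. With MAT2Ai replicate 2 left out 0 genes passed, as with all libraries, and with replicates 1, 3, 4 and 5 left out in turn 20 (0.122%), 3 (0.0184%), 22 (0.135%) and 18 (0.11%) rose and 0, 0, 5 (0.0306%) and 2 (0.0122%) fell. With replicates 3 and 5 both left out 144 rose (0.872%) and 31 fell (0.188%), with replicates 2 and 3 left out 0 did, with replicates 2 and 5 left out *Cdkn1a* and *Ephx1* rose (0.0121%), and with replicates 2, 3 and 5 left out 3 rose (0.0179%), *Cdkn1a* and *Ren1* among them. Of the 175 genes called without replicates 3 and 5, 40 (22.9%) had no overlap between all 5 treated and all 5 placebo libraries, and of the 27 without replicate 4, 11 had none. The 3 genes called without replicate 3, which included *Gtse1* and *Ly6a*, all had none. Over all tested genes 1.52% were higher and 0.662% lower with no overlap. Calls and overlap rest on the same libraries, so a higher share among called genes follows in part from that. *Cdkn1a* was called in 6 of the 7 settings with calls and *Gtse1* in 5. Without replicate 1 *Rsrc2*, *Cdkn1a*, *Tinagl1* (a basement membrane protein) and *Pfkfb3* (an activator of glycolysis) were among the genes that rose, and without replicate 4 *Ephx1* and *Sulf2* rose while *Ethe1*, a mitochondrial enzyme of sulfide oxidation, and *Fkbp1b*, a partner of the ryanodine receptor, fell. *Ethe1* was at 39.0 to 45.8 CPM in placebo and at 29.6, 23.4, 28.4, 45.8 and 31.2 CPM in MAT2Ai replicates 1 to 5.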

How the data were processed

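Bulk RNA of kidney cortex was sequenced in 20 mice. Per the study's methods, the authors selected poly(A) RNA, made libraries with the NEBNext Ultra II Directional kit, sequenced them on a NovaSeq instrument, aligned reads to mm10 with STAR and deposited raw htseq-count gene counts from an Ensembl annotation, 1 file per sample. The strand setting of the counting is not given in the sources used here, so overlapping and antisense genes may share reads, and reads that map to several places were not counted (52.3 to 63.6 for each 100 reads counted in genes), which lowers genes with near-identical copies. The htseq summary lines were left out (reads outside genes 4.21% to 5.49%, ambiguous reads 0.702% to 0.794%). The labels of the extraction speak of nuclei, whereas titles and methods describe cortex RNA.

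Of 43430 genes, 16152 passed filterByExpr, with 42546 IDs matched to GENCODE M21 symbols and 884 not. Counts of all 20 libraries were scaled by TMM and fitted by group in edgeR 4.0.16 (R 4.3.3; 16 residual degrees of freedom) with the quasi-likelihood test and Benjamini-Hochberg adjustment over all tested genes at 0.05. The fold changes are log2 with their SE, and CPM values use TMM library sizes. DESeq2 1.42.0, the edgeR likelihood ratio test, limma 3.58.1 (voom with sample weights), other scalings and filters, a replicate block and the omission of libraries were alternatives. The test was checked on simulated counts with known changes, where the quasi-likelihood test recovered 56.7%, 62.7% and 90.9% of genes changed 1.5-fold, 2-fold and 4-fold in this comparison, over 16152 genes. The simulated counts held no library that stood apart, unlike these data. Exact permutation tests over the 10 libraries were two-sided.

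The members and gene lists were chosen with earlier results of these data known. Named genes were *Mat2a*, *Slc5a2* and genes the study names, the genes without overlap with the smallest p values or largest fold changes with a mean level of 1 CPM or more, the genes with the widest gap for each treated library, and 4 or fewer members per list, taken by p value. *Ethe1*, *Ddit4*, *Cyp24a1*, *Ren1*, *Hmox1*, cell markers and other genes outside this rule were chosen after their values were seen, as were the 4 promoters. Some genes that met the rule are not reported here. Samples were not paired: same-numbered WT libraries had a mean correlation of deviations of 0.0226, over 0.1 in 1 of 5 pairs. Promoters were read from RefSeq, GRCm38.p6.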

Additional observations from a re-analysis of the deposited data

Results flagged for a closer look

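In each WT group of 5 libraries the gap between the highest or lowest library and its nearest neighbour was divided by the range of the group, in CPM for genes and in mean log2 CPM for lists, and values above 0.71 (Dixon's 95% critical value for 5) are given here. This held for 57 of 246 groups, where chance alone gives about 1 in 20. The genes include those named because 1 library stood apart, for which a high ratio follows from the choice. No cause was tested.

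MAT2Ai replicate 2 was the highest library for 21 genes, with ratios of 0.914 for *Cdkn1a*, 0.873 for *Gtse1*, 0.958 for *Gdf15*, 0.858 for *Plin4*, 0.817 for *Akr1b7*, 0.926 for *Chrnb1*, 0.712 for *Kcnq1ot1* and 0.751 for *Dnmt3b*. The ratios of the injury and acute phase genes were 0.973 for *Fgg*, 0.966 for *Fga*, 0.973 for *Lcn2*, 0.975 for *Lrg1*, 0.952 for *Krt20*, 0.97 for *Sox9*, 0.966 for *Cd14*, 0.96 for *Serpina10* and 0.955 for *Havcr1*. Those of the inflammatory genes were 0.758 for *Fos*, 0.833 for *Jun*, 0.94 for *Icam1* and 0.827 for *Rela*. The same library was the lowest for *Mat2b*, at 0.75.

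MAT2Ai replicate 3 was the highest for 8 genes, at 0.954 for *Vcan*, 0.912 for *Upk3a*, 0.918 for *Psca*, 0.934 for *Upk1b*, 0.937 for *Fcgbp*, 0.937 for *Adgrf3*, 0.91 for *Sptssb* and 0.912 for *Upk3b*. MAT2Ai replicate 5 was the highest for 8 genes, at 0.989 for *Iigp1*, 0.985 for *Tgtp1*, 0.968 for *H2-DMb2*, 0.973 for *H2-Ab1*, 0.961 for *Psmb8*, 0.963 for *Ubd*, 0.981 for *H2-Ea-ps* and 0.988 for *BC023105*. Replicate 1 was the highest at 0.772 for *Ccng1*, 0.816 for *Hmox1*, 0.83 for *Ces1g* and 0.779 for *Dscaml1*, and replicate 4 at 0.804 for *Cyp27b1*, 0.761 for *Cyp2b10* and 0.821 for *Ch25h*.

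Among placebo libraries, replicate 2 was the highest for *Cyp26b1* (0.757) and *Sptssb* (0.879), replicate 3 for *Hmox1* (0.925) and replicate 5 for *Hmcn2* (0.734), and replicate 4 was the lowest for *Lrg1* (0.776). Among lists, replicate 2 of the treated group was the highest for p53 targets of arrest (0.861), the integrated stress response (0.8) and chemokines (0.777), and replicate 5 for MHC class II (0.759) and proliferation (0.724). Placebo replicate 1 was the lowest for immediate early genes (0.919) and placebo replicate 5 for ribosomal protein genes (0.778).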

How the results depend on the processing

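The count of 0 genes past the adjusted threshold in WT HFD MAT2Ai against placebo was also found with WT libraries fitted alone, other scalings and filters, robust fitting, each placebo library left out and the replicate block (0 genes; the numbers do not pair the samples, so no other use was made of it). DESeq2 gave 150 higher and 51 lower, the likelihood ratio test 155 and 23, and voom 2 higher. Leaving out 1 treated library gave 0 to 22 higher and 0 to 5 lower, leaving out replicates 2 and 5 gave 2 higher, replicates 3 and 5 gave 144 higher and 31 lower, and replicates 2, 3 and 5 gave 3 higher. With only 2 treated libraries left, the spread is taken mostly from the other groups. Genes without overlap numbered 278 to 446 higher and 134 to 314 lower with 1 library left out, where fewer libraries have to be cleared, and 66 lower under library totals. Genes set apart by 1 library, 597 above and 486 below in treated and 31 and 164 in placebo kidneys, were 1654, 1662, 246 and 614 with a gap of 0.5 and 168, 47, 1 and 12 with a gap of 2, and the placebo genes below were 289 with a prior count of 0.5 and 58 with one of 5. Replicate 2 had the most in every setting.

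Of 85 named genes 69 kept their sign in all settings, and these values reversed (log2 fold changes; the cause was not tested beyond the library left out). Without replicates 2 and 5, *Iigp1* was at −0.25, *Tgtp1* at −0.25, *H2-DMb2* at −0.08, *H2-Ab1* at −0.10, *Psmb8* at −0.06, *Ubd* at −0.16, *BC023105* at −0.41, *Jun* at −0.06, *Junb* at −0.13 and *Nfkb1* at −0.06. Without replicates 2, 3 and 5, *Iigp1* was at −0.28, *Tgtp1* at −0.09, *H2-DMb2* at −0.21, *H2-Ab1* at −0.07, *Psmb8* at −0.06, *Ubd* at −0.12, *BC023105* at −0.12 and *Nfkb1* at −0.11. Without replicates 3 and 5, *Iigp1* was at −0.10, *Fos* at 0.21 and *Il1b* at 0.21, and without replicates 2 and 3 *Serpina10* was at −0.03. With each library left out in turn, *Iigp1* ranged from −0.11 to 3.94, *Tgtp1* from −0.01 to 4.04, *Cyp27b1* from −0.19 to 0.90, *Ch25h* from −0.44 to 0.58, *Fos* from −1.20 to 0.16, *Jun* from −0.03 to 0.54, *Junb* from −0.16 to 0.61, *Il1b* from −0.52 to 0.13 and *Ccl2* from −0.03 to 0.54. Under voom *Ch25h* was at −0.07 and *Junb* at −0.29. Low genes such as the uroplakins, at a fraction of a CPM outside replicate 3, rest on few reads.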
